A study of Mus musculus with 48 samples.

Results

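The Toll-like receptors are the receptors through which macrophages sense microbial products, and they are described here across 16 groups of mouse macrophages together with Cd14. The members were the rows of the deposited count table whose gene ID maps to Tlr1, Tlr2, Tlr3, Tlr4, Tlr6, Tlr7, Tlr8, Tlr9, Tlr13 or Cd14, which gave 10 genes of 51789. Each symbol matched 1 row. The study measured 48 libraries of 3′ RNA tags from 8 macrophage populations, each with 3 libraries of cells given AP-3-84, a compound known here only by this code, at 10 µM for 4 h and 3 of cells given an equivalent amount of DMSO. The question was how the compound changes gene expression in different kinds of macrophage.

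Peritoneal macrophages came from 2 sources, both sorted for the surface protein F4/80 with magnetic beads. Thioglycollate macrophages were taken from intact B6 mice 4 days after 1 ml of 3% thioglycollate, and the labels give their strain as C57BL/6. Ascites macrophages were washed from the peritoneum 45 days after injection of ID8 ovarian tumour cells, from mice labelled C57BL/6 in strain and B6(Cg)-Tyrc-2J/J in genotype. Bone marrow-derived macrophages were grown for 6 days with M-CSF at 10 ng/mL, with marrow of B6 mice that were either wild-type or p53 KO. They were left unpolarized (M0), or incubated for 24 h more with LPS at 100 ng/mL and IFN-γ at 50 ng/mL (M1), or with both IL-4 and IL-13, 10 ng/mL of either cytokine (M2). The genotype field calls the p53 KO libraries wild-type, while their titles, their descriptions and the series design separate them, and the titles were followed. Neither age, sex nor the number of mice is stated in the labels, which also do not say that the libraries of a group came from separate animals or cultures. The p-values therefore measure the spread between these libraries, which may be technical.

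Toll-like receptors are transmembrane proteins with leucine-rich repeats outside the cytoplasm and a TIR domain inside it. Tlr2 pairs with Tlr1 or Tlr6 at the cell surface and binds bacterial lipoproteins, and Tlr4 binds LPS with Ly96 (MD-2) and the co-receptor Cd14. Tlr3 binds double-stranded RNA, Tlr7 and Tlr8 bind single-stranded RNA, Tlr9 binds CpG DNA and Tlr13 binds bacterial ribosomal RNA, all in endosomes, where the chaperone Unc93b1 delivers them. Signals pass through Myd88 or Ticam1 (TRIF) to NF-kB and interferon regulatory factors. The LPS used for M1 polarization is thus itself a ligand of Tlr4.

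In GENCODE M21 on GRCm38, Tlr1 (ENSMUSG00000044827, chr5:64924679-64933563, minus strand) and Tlr6 (ENSMUSG00000051498, chr5:64952031-64960097, minus strand) lie 18468 bases apart. Their transcripts share 616 identical stretches of 30 bases, 18.6% of those of Tlr1 and 16.6% of those of Tlr6, so reads could be split between them. In the last 500 bases of the transcripts, the end from which 3′ tags are made, 38 of 839 stretches of Tlr1 and 4 of 875 of Tlr6 were shared. Tlr2 lies at chr3:83836272-83841767, Tlr3 at chr8:45395665-45411080, Tlr4 at chr4:66827584-66930284 and Tlr9 at chr9:106222598-106226883. Tlr7 (chrX:167304929-167330558) and Tlr8 (chrX:167242696-167264329) are near neighbours on the minus strand of the X chromosome, which also carries Tlr13 at chrX:106143204-106160493. Tlr3 overlaps the antisense gene Gm45542, and whether the counting used strand is unstated. The authors' genome build is not given in the sources used here, so these coordinates describe the annotation and not the reads.

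The promoter windows of Tlr2, Tlr3 and Tlr8 are shown because these 3 genes took different courses on polarization: Tlr2 was lower in M2 cells, Tlr3 was higher in M1 cells and Tlr8 was lower in both kinds of polarized p53 KO cells. Each window holds the 250 bases before the start site and the 50 after it, 5′ to 3′ on the gene's strand, from RefSeq on GRCm38.p6, at chr3:83841559-83841858, chr8:45410331-45410630 and chrX:167264280-167264579, all on the minus strand. Capitals mark matches to a short list of motifs, each searched on both strands.
Tlr2: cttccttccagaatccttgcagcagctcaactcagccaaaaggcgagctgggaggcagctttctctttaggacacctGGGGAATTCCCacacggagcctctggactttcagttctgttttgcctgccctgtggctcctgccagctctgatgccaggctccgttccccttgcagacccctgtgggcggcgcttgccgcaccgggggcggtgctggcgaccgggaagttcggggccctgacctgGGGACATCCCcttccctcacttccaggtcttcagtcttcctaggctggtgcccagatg
Tlr3: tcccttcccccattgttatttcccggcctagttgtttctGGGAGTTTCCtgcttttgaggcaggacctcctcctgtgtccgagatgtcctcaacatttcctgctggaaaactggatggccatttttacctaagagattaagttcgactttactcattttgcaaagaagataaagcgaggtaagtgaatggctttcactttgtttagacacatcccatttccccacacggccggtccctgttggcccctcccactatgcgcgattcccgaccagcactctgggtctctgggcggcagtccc
Tlr8: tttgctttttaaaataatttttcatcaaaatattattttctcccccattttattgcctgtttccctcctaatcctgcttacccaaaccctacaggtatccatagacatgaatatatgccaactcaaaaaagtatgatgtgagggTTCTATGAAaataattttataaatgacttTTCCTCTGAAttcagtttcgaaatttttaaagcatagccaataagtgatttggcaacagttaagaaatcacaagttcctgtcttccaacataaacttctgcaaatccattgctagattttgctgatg
The capitals in Tlr2 are NF-kB matches, 2 overlapping ones that begin 173 and 172 bases before the start site and 1 that begins 8 bases before it. Tlr3 holds 1 NF-kB match 211 bases before its start site. In Tlr8 the first capitals are the letters TTCNNNGAA, a GAS match 106 bases before the start site, and the second are a form bound by STAT6, with TTC and GAA set 4 bases apart, which overlaps the PU.1 core GAGGAA on the other strand. Of 32851 RefSeq promoter windows of this length, 8.46% hold an NF-kB match, 8.3% TTCNNNGAA, 6.95% the STAT6 form and 28.3% GAGGAA. The ISRE core (GAAA, any 2 bases, GAAA), present in 3.44% of windows, had no match in these 3 windows, and Tlr6 had 2 overlapping ones in 1 of its 2 windows. Matches of this kind describe letters only. Tlr4, Tlr7 and Cd14 are named without a window.

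Library totals were 15532373 to 19417581 counts in the 12 peritoneal libraries and 3081707 to 4645148 in the 36 bone marrow-derived ones, so the 2 origins were fitted apart and are not compared with each other. Levels are depth-scaled counts (CPM), with library sizes scaled by edgeR's TMM method. Differences are given as a log2 fold change from edgeR's quasi-likelihood test, with Benjamini-Hochberg adjustment over all genes tested. The test gives no standard error (SE), so the SE is the absolute log2 fold change divided by the square root of the F statistic. The 95% intervals multiply this SE by a normal quantile and are thus somewhat narrower than the test's own reference would give. A gene is said to have risen, fallen or changed where the adjusted p was under 0.05. All 7 macrophage markers were detected in every group. Cdkn1a, a p53 target, ranged over 34.1 to 292 CPM in p53 KO libraries and over 555 to 1119 CPM in wild-type bone marrow-derived ones, with no overlap, whereas Trp53 tags were still counted in p53 KO cells at 2.70 to 9.11 CPM. Which part of Trp53 is deleted is unstated, so a 3′ tag does not check the deletion. Hspa1a, a heat-shock gene, was at most 6.68 CPM in any vehicle library and 3.79 to 759.7 CPM in the AP-3-84 libraries. Pooled over all populations these ranges overlapped, so they do not check the treatment label of every library. In some response genes downstream of these receptors 3 libraries, picked after seeing the data, stood apart from the others of their group. Saa3, an acute-phase gene, was at 72.0 CPM in wild-type M0 vehicle replicate 1 against 421 and 628 CPM, at 3421 CPM in wild-type M2 vehicle replicate 1 against 201 and 174 CPM, and at 387 CPM in p53 KO M0 AP-3-84 replicate 3 against 1715 and 1557 CPM. This choice of libraries was not the only one possible. Over the 18 response genes the median of log2(CPM + 1) was 6.23, 5.03 and 3.33 in wild-type M2 vehicle replicates 1, 2 and 3. Replicate 3, which was kept, thus lay further from replicate 2 than replicate 1 did. Member results that use the 3 libraries picked are given with and without them where the call differs. Shares of all genes called are from the fits with all libraries.

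Of the 10 members, 9 had enough counts to be tested in each origin. Tlr9 had at most 8 counts in a peritoneal library and was at 0 in 7 of 12, all 6 thioglycollate libraries among them, where 3 counts would be 0.163 to 0.201 CPM. In bone marrow-derived libraries it had at most 3 counts and was at 0 in 25 of 36, where 3 counts would be 0.636 to 0.992 CPM. At this depth Tlr9 could not be followed, and these limits cover counting error only. The other 9 members were counted in all 48 libraries. Among Toll-like receptors outside the member list, Tlr5, Tlr11 and Tlr12 reached at most 11, 8 and 14 counts in a library.

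Ascites macrophages in vehicle carried higher levels of most surface receptors than thioglycollate macrophages did, and Tlr13 alone among the tested members was called lower. Of 9 members tested, 6 were higher and 1 was lower, where 33.7% of 16955 genes were called, 20.3% higher and 13.4% lower. Among all genes the 2 groups of libraries did not overlap for 47.1%. The median log2 fold change was 0.87 over the members and 0.05 over all genes tested. Tlr2, the shared partner of the lipoprotein receptors, differed most. It was at 89.98, 87.01 and 84.2 CPM in the ascites replicates and at 17.9, 14.03 and 13.02 CPM in the thioglycollate ones (log2 fold change 2.54, SE 0.11, adjusted p = 5.58e-12). Every ascites library was above every thioglycollate library, and the mean difference was 5.82-fold. Cd14 was 2.76-fold higher, at 191, 177 and 164 CPM against 70.99, 59.7 and 62.2 CPM (log2 fold change 1.46, SE 0.09, adjusted p = 5.77e-10). Tlr4 stood at 21.03, 22.2 and 20.6 CPM against 9.64, 8.75 and 11.8 CPM (log2 fold change 1.08, SE 0.15, adjusted p = 2.11e-05). The LPS receptor and its co-receptor thus both separated the 2 sources without overlap. Tlr1 was also higher, at 14.3, 13.9 and 14.6 CPM against 6.45, 8.26 and 8.63 CPM (log2 fold change 0.87, SE 0.16, adjusted p = 0.00025). Tlr6, the other partner of Tlr2, did not pass the test, at 10.2, 7.39 and 11.7 CPM in ascites and 10.7, 11.4 and 11.7 CPM in thioglycollate cells, and these ranges overlapped (log2 fold change -0.21, SE 0.19, adjusted p = 0.471).

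Among the endosomal receptors, Tlr3 was 3.18-fold higher in ascites macrophages, at 36.5, 36.3 and 36.7 CPM against 10.02, 13.5 and 10.8 CPM (log2 fold change 1.67, SE 0.12, adjusted p = 7.27e-09). The 3 ascites values lay within 1 CPM of each other and above all thioglycollate values. Tlr7 was 1.62-fold higher, at 73.1, 76.5 and 77.1 CPM against 53.6, 37.9 and 48.6 CPM (log2 fold change 0.70, SE 0.11, adjusted p = 6.16e-05). Tlr13 went the other way, with 49.4, 55.7 and 59.7 CPM in ascites and 86.95, 87.8 and 80.1 CPM in thioglycollate macrophages (log2 fold change -0.63, SE 0.08, adjusted p = 1.18e-05). Tlr8 was at 24.2, 21.7 and 17.3 CPM against 24.9, 25.3 and 26.8 CPM and did not pass the test (log2 fold change -0.29, SE 0.15, adjusted p = 0.176). So the 3 X-linked members split, with Tlr7 higher, Tlr13 lower and Tlr8 without a call. Each of these 7 calls held in all 11 other fits (DESeq2, 2 other scalings, no filter, a replicate block and each library left out), leave-one-out fits included.
The rest of the pathway differed between the 2 sources as well. Of 9 co-receptors, chaperones and transport factors, 5 were higher and 1 lower: Ly86 (MD-1, the partner of Cd180) had a log2 fold change of 1.95 (adjusted p = 2.54e-09), Cd180 of 0.84 (adjusted p = 0.00106), and Cd36, a scavenger receptor that assists Tlr2, of -1.199 (adjusted p = 2.00e-10). Among 24 adaptors, kinases and transcription factors, 8 were higher and 4 lower, led by Irf7 (log2 fold change 5.71, adjusted p = 7.85e-15). Of 7 negative regulators tested, 4 were higher, among them Socs1 and Trim30a, and Tollip and Tnfaip3 were lower. Of 14 response genes tested, 12 were higher, such as Ccl5 (5.07, adjusted p = 1.97e-11), while Saa3 was lower. The list medians were 0.49, 0.02, 1.21 and 2.12 in the order given, beside 0.05 over all genes.
Tumour or epithelial markers moved with this comparison. Their 6 genes summed to 183.5 to 216 CPM in ascites vehicle libraries, where all 6 were detected, and to 2.55 to 4.34 CPM in thioglycollate vehicle libraries, where Epcam and Msln were at 0. The dendritic cell markers summed to 152 to 163 CPM in ascites and 38.9 to 43.3 CPM in thioglycollate vehicle libraries, with Cd209a at 0 in ascites. B cell markers were at most 5.16 CPM in sum in either. Summed macrophage markers were 28655 to 30487 and 34284 to 34749 CPM. The part of other cells in the member differences was not tested, and in bulk RNA fewer cells of a type and less RNA per cell cannot be told apart.

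**Figure D1:**
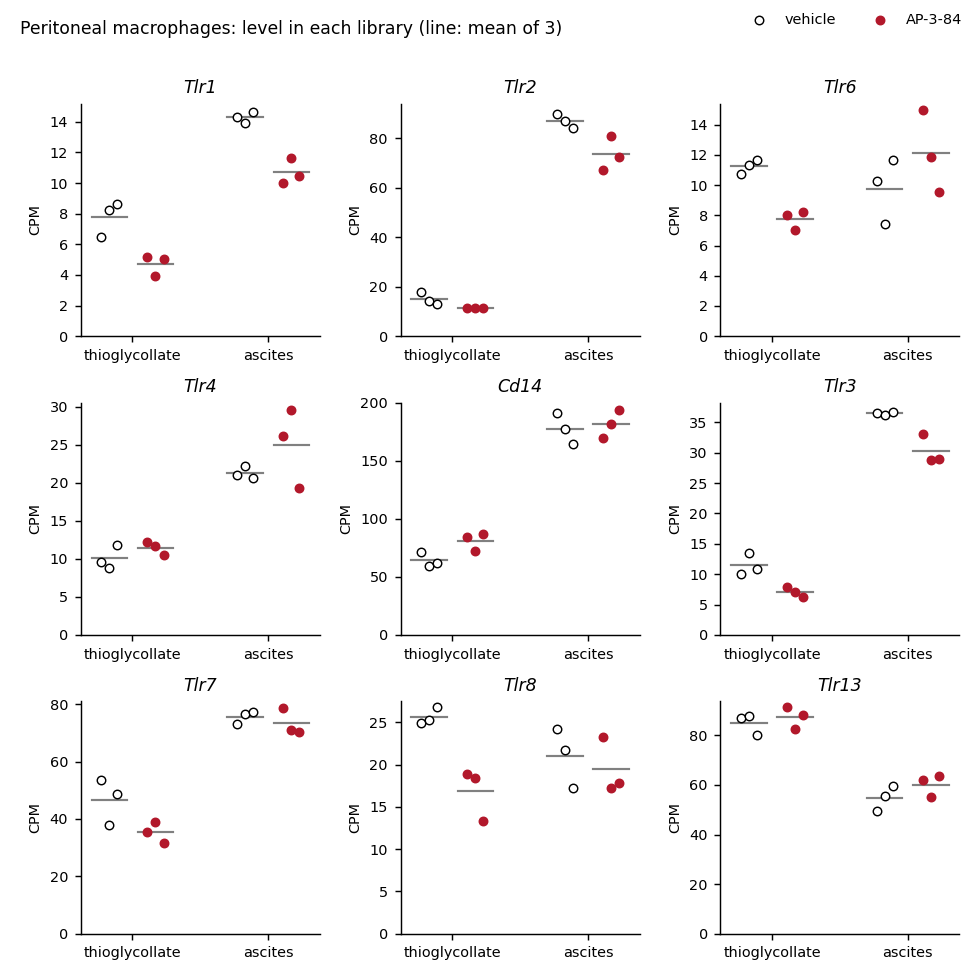
Level in CPM (linear axis from 0) of 9 members in each peritoneal library, with thioglycollate macrophages on the left and ascites macrophages on the right of each panel. Open circles are vehicle libraries, filled red circles AP-3-84 libraries and grey lines the mean of 3. Tlr2 in ascites vehicle libraries lies between 84.2 and 90.0 CPM and in thioglycollate vehicle libraries between 13.0 and 17.9 CPM.

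Polarization of wild-type bone marrow-derived macrophages toward M1 was accompanied by more Tlr7 and Tlr3, and polarization toward M2 by less Tlr2 and Cd14 and more Tlr4. In M1 against M0 vehicle cells 2 of 9 members were higher and 0 lower, where 15.5% of 11779 genes were called, 8.01% higher, and groups did not overlap for 38.2%. Tlr7 rose 2.96-fold, from 80.5, 52.8 and 51.4 CPM to 155, 181 and 211 CPM (log2 fold change 1.57, SE 0.23, adjusted p = 1.98e-05). Every M1 library lay above every M0 library. Tlr3 rose 1.86-fold, from 13.2, 12.2 and 16.1 CPM to 23.8, 24.1 and 29.2 CPM (log2 fold change 0.89, SE 0.26, adjusted p = 0.0171). The groups did not overlap, but the adjusted p was 0.0557 without wild-type M0 vehicle replicate 1, 0.0897 without wild-type M0 vehicle replicate 2 and 0.0857 without wild-type M1 vehicle replicate 3, and 0.0972 with scaling by total counts. With the 3 libraries that stood apart left out Tlr3 was not called (log2 fold change 0.84, adjusted p = 0.0523) and Tlr7 was (log2 fold change 1.79). Tlr4, the receptor of the LPS in the M1 mixture, was at 23.1, 29.2 and 19.7 CPM in M0 and 17.3, 17.2 and 26.9 CPM in M1 cells, and these values overlapped (log2 fold change -0.22, SE 0.25, adjusted p = 0.602). Tlr2 (log2 fold change -0.50, SE 0.40, adjusted p = 0.442) and Cd14 (log2 fold change 0.08, SE 0.31, adjusted p = 0.905) did not pass the test either. Tlr1 was at 11.4, 22.5 and 30.2 CPM in M0 and 33.1, 38.4 and 37.8 CPM in M1 cells without overlap, and missed the threshold (adjusted p = 0.0702). Markers of other cells were counted in the same libraries. Summed macrophage markers were 30189 to 38378 CPM in M0 and 43565 to 46541 CPM in M1, and dendritic cell markers 34.4 to 50.7 and 147 to 162 CPM, both without overlap. Of the dendritic sum in M1, Bst2 made up 146.7 to 162 CPM, and Siglech, Xcr1, Clec9a and Cd209a were at 0. Neutrophil markers, at 276 to 498 and 448 to 575 CPM, overlapped, and B cell markers were at most 12.3 CPM. Their part in the member changes was not tested.

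In M2 against M0 wild-type vehicle cells 1 member was higher and 2 were lower, where 23.4% of genes were called, 12.7% higher and 10.7% lower, and groups did not overlap for 36.8%. Tlr2 fell 3.88-fold, from 96.01, 252 and 248 CPM to 62.3, 50.1 and 41.2 CPM (log2 fold change -1.96, SE 0.42, adjusted p = 0.0011). All 3 M2 libraries lay below all 3 M0 libraries, of which replicate 1 was the lowest. Cd14, at chr18:36725067-36726798, fell 3.72-fold, from 239, 568 and 472 CPM to 199, 88.4 and 55.4 CPM (log2 fold change -1.90, SE 0.32, adjusted p = 8.11e-05). The M2 library closest to the M0 range was replicate 1, one of those that stood apart. Tlr4 rose 2.11-fold, from 23.1, 29.2 and 19.7 CPM to 41.2, 61.5 and 49.4 CPM (log2 fold change 1.08, SE 0.24, adjusted p = 0.00125), again without overlap. The LPS receptor and its co-receptor therefore moved in opposite directions in M2 cells. Without the 3 libraries that stood apart the log2 fold changes were -2.47 for Tlr2, -2.87 for Cd14 and 1.17 for Tlr4, with adjusted p of 0.000835, 8.83e-09 and 0.00171 from edgeR. These 3 calls held in each of the 11 other fits. Tlr3 was lower without overlap in M2 cells but missed the threshold (log2 fold change -0.67, SE 0.28, adjusted p = 0.0795); with scaling by total counts it passed (adjusted p = 0.0173). Tlr13, Tlr7, Tlr6 and Tlr1 had log2 fold changes of -0.15, 0.25, 0.41 and -0.15, none past the threshold. Between these M2 and M0 libraries the sums of macrophage, neutrophil and dendritic cell markers all overlapped, with neutrophil markers reaching 3973 CPM in M2.

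Macrophages from p53 KO marrow showed the same 3 calls on M2 polarization and 3 more. In M2 against M0 p53 KO vehicle cells 1 of 9 members was higher and 5 were lower, where 38% of genes were called, 20.1% higher and 18% lower, and groups did not overlap for 47.7%. Tlr2 fell 2.31-fold, from 77.3, 72.95 and 57.6 CPM to 31.3, 26.8 and 31.7 CPM (log2 fold change -1.21, SE 0.42, adjusted p = 0.0254). Cd14 fell 3.42-fold, from 269.9, 257 and 193 CPM to 63.4, 71.2 and 76.1 CPM (log2 fold change -1.77, SE 0.33, adjusted p = 0.000104). Tlr4 rose 1.89-fold, from 32.8, 31.4 and 24.9 CPM to 52.5, 52.7 and 62.8 CPM (log2 fold change 0.92, SE 0.24, adjusted p = 0.00284). In none of the 3 did the groups overlap. The endosomal receptors Tlr7, Tlr8 and Tlr13 were the other 3 that fell. Tlr7 went from 155, 163 and 127 CPM to 54.9, 70.3 and 88.05 CPM (log2 fold change -1.06, SE 0.23, adjusted p = 0.00054). Tlr13 went from 76.8, 83.4 and 81.95 CPM to 42.2, 38.3 and 47.6 CPM (log2 fold change -0.92, SE 0.31, adjusted p = 0.0214). Tlr8, at low counts, went from 7.86, 9.85 and 16.2 CPM to 6.37, 4.05 and 3.47 CPM (log2 fold change -1.29, SE 0.43, adjusted p = 0.0173). All 3 were lower in every M2 library than in any M0 library. In edgeR's leave-one-out fits several of these calls missed the threshold. Over the 11 other fits the log2 fold change ran from -1.34 to -1.13 for Tlr2, from -1.57 to -0.94 for Tlr8 and from -1.0003 to -0.84 for Tlr13. For Tlr2 the adjusted p was 0.0626 without p53 KO M0 vehicle replicate 1, 0.0545 without p53 KO M0 vehicle replicate 2, 0.0535 without p53 KO M2 vehicle replicate 1, 0.082 without p53 KO M2 vehicle replicate 2 and 0.0603 without p53 KO M2 vehicle replicate 3. For Tlr8 it was 0.131 without p53 KO M0 vehicle replicate 3, 0.0633 without p53 KO M2 vehicle replicate 2 and 0.0802 without p53 KO M2 vehicle replicate 3, and for Tlr13 0.0517 without p53 KO M2 vehicle replicate 1 and 0.077 without p53 KO M2 vehicle replicate 2. Neutrophil markers summed to 359 to 3303 CPM in the M2 and 583 to 738 CPM in the M0 p53 KO vehicle libraries, with 7 and 6 of 7 detected and Ly6g at 0 in M0, and macrophage markers to 5894 to 18413 and 32252 to 38950 CPM. Their part in the result was not tested.

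In M1 against M0 p53 KO vehicle cells 1 member was higher and 2 were lower, where 44.5% of genes were called, 22.8% higher and 21.8% lower (groups did not overlap for 51.7%), so the share of members called was below that of all genes. Tlr3 rose 1.67-fold, from 9.43, 9.85 and 11.1 CPM to 20.9, 16.96 and 13.2 CPM (log2 fold change 0.74, SE 0.27, adjusted p = 0.0272). Tlr7 fell 1.496-fold, from 155, 163 and 127 CPM to 83.2, 117 and 96.9 CPM (log2 fold change -0.58, SE 0.23, adjusted p = 0.0382). Tlr8 fell 2.61-fold, from 7.86, 9.85 and 16.2 CPM to 6.32, 4.56 and 2.23 CPM (log2 fold change -1.38, SE 0.43, adjusted p = 0.00957). None of these 3 pairs of groups overlapped. Over the 11 other fits the log2 fold change ran from 0.57 to 0.90 for Tlr3, from -0.71 to -0.46 for Tlr7 and from -1.74 to -1.01 for Tlr8. For Tlr3 the adjusted p was 0.076 without p53 KO M0 vehicle replicate 1, 0.0641 without p53 KO M0 vehicle replicate 2 and 0.127 without p53 KO M1 vehicle replicate 1, and 0.0591 with no filter on low counts. For Tlr7 it was 0.0905 without p53 KO M0 vehicle replicate 1, 0.119 without p53 KO M0 vehicle replicate 2, 0.15 without p53 KO M1 vehicle replicate 1 and 0.0945 without p53 KO M1 vehicle replicate 3. For Tlr8 it was 0.0902 without p53 KO M0 vehicle replicate 3 and 0.0753 without p53 KO M1 vehicle replicate 3. Tlr2 spread widely among the p53 KO M1 vehicle libraries, at 46.4, 192 and 115 CPM, and Cd14 did so with it, at 244, 576 and 381 CPM. Replicate 1 was the lowest and replicate 2 the highest for both, and neither gene passed the test (log2 fold change 0.77, SE 0.40, adjusted p = 0.124 and log2 fold change 0.74, SE 0.31, adjusted p = 0.0566). Between these M1 and M0 libraries summed macrophage markers were 16073 to 25150 and 32252 to 38950 CPM, neutrophil markers 988 to 2487 and 583 to 738 CPM, and dendritic cell markers 109 to 194 and 23.8 to 30.8 CPM, none with overlap. All 7 neutrophil markers were detected in M1, where Ly6g was at most 0.253 CPM, and 6 in M0, where Ly6g was at 0. In M1, Bst2 made up 107 to 193 CPM of the dendritic sum, and Siglech, Clec9a and Cd209a were at 0. B cell markers summed to at most 28.01 CPM. Their part in the member changes was not tested.

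**Figure D2:**
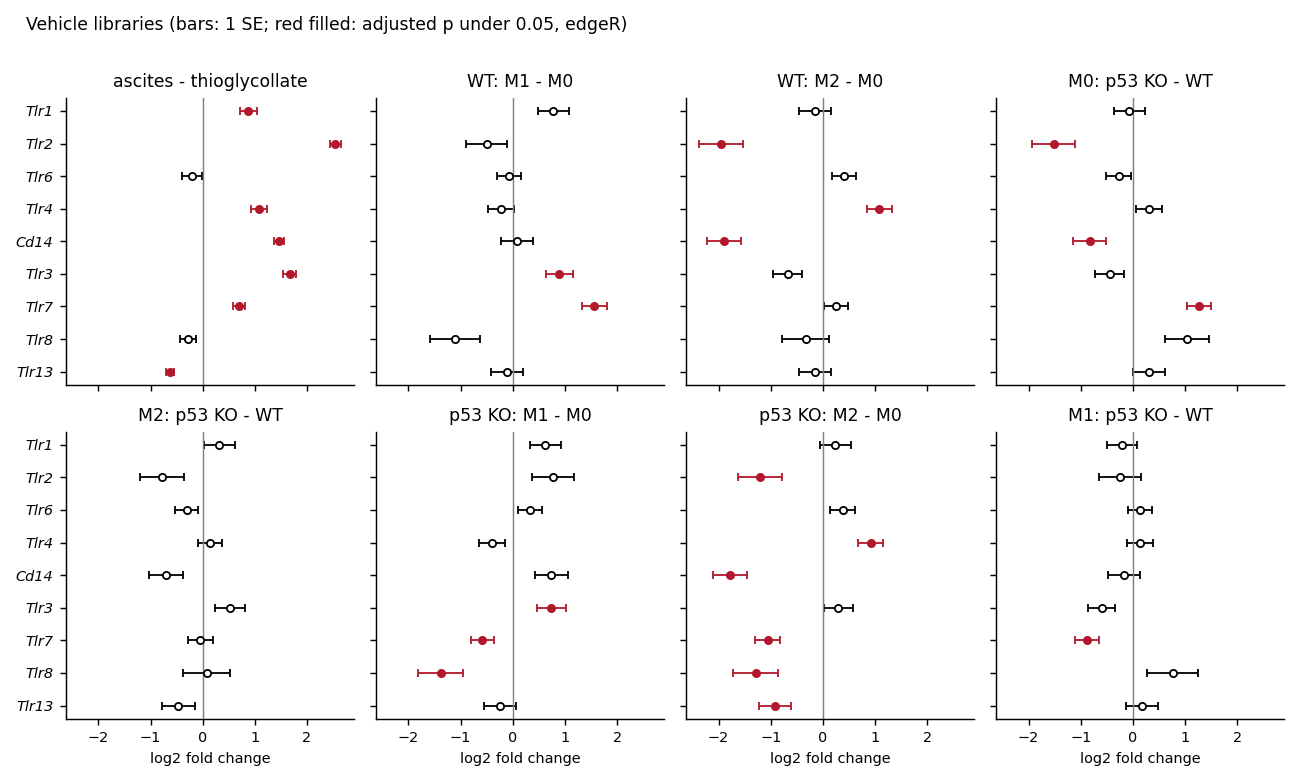
Log2 fold change of 9 members in 8 comparisons of vehicle libraries, with bars of 1 SE; red filled points have an adjusted p under 0.05 in edgeR's quasi-likelihood test and open points do not. Tlr4 lies to the right and Tlr2 and Cd14 to the left in both comparisons of M2 with M0, and Tlr7 lies on opposite sides in the comparisons of M1 with M0 in wild-type and p53 KO cells.

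The change of Tlr7 on polarization differed between the genotypes. In wild-type vehicle cells it was lowest in M0 and highest in M1, whereas in p53 KO vehicle cells it was highest in M0. The p53 KO M0 libraries, at 155, 163 and 127 CPM, were 2.41-fold above the wild-type ones, at 80.5, 52.8 and 51.4 CPM (log2 fold change 1.27, SE 0.23, adjusted p = 0.00012). In M1 the order was turned, with 83.2, 117 and 96.9 CPM in p53 KO and 155, 181 and 211 CPM in wild-type cells (log2 fold change -0.88, SE 0.23, adjusted p = 0.0119). Neither pair overlapped. In M2 cells the log2 fold change was -0.04 (SE 0.23, 95% interval -0.50 to 0.41) and did not pass the test. The change from M0 to M1 differed between the genotypes by -2.15 on the log2 scale (adjusted p = 2.13e-05), and the change from M0 to M2 by -1.31 (adjusted p = 0.00361), both by edgeR's test of the difference itself. Among all genes 20.7% and 27.1% were called in these 2 tests, and Tlr7 was the only member called in either. Both held in all 17 other fits. Without the 3 libraries that stood apart Tlr2 and Cd14 were called as well in the M1 test (1.64 and 0.98, adjusted p = 0.0452 and 0.0263), and Cd14 in the M2 test (1.08, adjusted p = 0.0193), beside Tlr7 at -2.35 and -1.34. The lower M1 value in p53 KO cells was less steady: the adjusted p was 0.0714 without p53 KO M1 vehicle replicate 1, 0.055 without p53 KO M1 vehicle replicate 3 and 0.0624 without wild-type M1 vehicle replicate 3, and 0.0746 with scaling by total counts, over log2 fold changes of -0.99 to -0.61. Between the genotypes summed macrophage markers were 16073 to 25150 CPM in p53 KO and 43565 to 46541 CPM in wild-type M1 vehicle libraries, and neutrophil markers 988 to 2487 and 448 to 575 CPM, with no overlap and with Ly6g at most 0.504 CPM. In M0 vehicle libraries macrophage markers overlapped, at 32252 to 38950 and 30189 to 38378 CPM, whereas neutrophil markers were 583 to 738 CPM in p53 KO and 276 to 498 CPM in wild-type, dendritic cell markers 23.8 to 30.8 and 34.4 to 50.7 CPM, and B cell markers 20.01 to 28.01 and 6.93 to 12.3 CPM, without overlap. Their part in the differences between genotypes, those of Tlr2 and Cd14 included, was not tested.

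Among the surface receptors, Tlr2 was 2.87-fold lower in p53 KO than in wild-type M0 vehicle cells, at 77.3, 72.95 and 57.6 CPM against 96.01, 252 and 248 CPM (log2 fold change -1.52, SE 0.41, adjusted p = 0.00552). The groups did not overlap, and without the 3 libraries that stood apart the log2 fold change was -1.87 (adjusted p = 0.00185). Cd14 was 1.77-fold lower, at 269.9, 257 and 193 CPM against 239, 568 and 472 CPM (log2 fold change -0.83, SE 0.31, adjusted p = 0.0429). Here the groups overlapped, since wild-type replicate 1 was within the p53 KO range, and the adjusted p was 0.0553 without p53 KO M0 vehicle replicate 1, 0.0716 without p53 KO M0 vehicle replicate 2, 0.156 without p53 KO M0 vehicle replicate 3, 0.213 without wild-type M0 vehicle replicate 2 and 0.105 without wild-type M0 vehicle replicate 3. With the 3 libraries left out it was 0.000492. In all, 1 member was higher and 2 were lower in p53 KO M0 cells, where 33.2% of genes were called, 16.4% higher and 16.8% lower, and groups did not overlap for 47.7%. Tlr8 was higher without overlap, at 7.86, 9.85 and 16.2 CPM against 4.71, 5.50 and 6.39 CPM, and missed the threshold (adjusted p = 0.0565). In M1 cells Tlr7 was the 1 member called, where 11.6% of genes were, 5.93% higher and 5.71% lower, and groups did not overlap for 34.1%. In M2 cells no member was called by edgeR or by DESeq2, and edgeR called 3.56% of genes, 1.21% higher and 2.34% lower. An unadjusted p under 0.05 was reached there by 1 member and by 2276 of 11779 genes. The response genes differed in the same M0 comparison: 10 of 17 tested were lower and 0 higher in p53 KO cells (list median -3.14, beside 0.03 over all genes). Marco, a scavenger receptor, was at 14.3 to 17.5 CPM there and at 1171 to 2070 CPM in wild-type M0 vehicle cells. Of 8 negative regulators tested 4 were lower, among them Irak3 (log2 fold change -2.80, adjusted p = 3.23e-07), a kinase-like inhibitor of Myd88 signalling, and Socs1 (-2.55, adjusted p = 0.0186). Among 9 co-receptors and chaperones 3 were higher, led by Ly86 (2.15, adjusted p = 2.06e-05), and Cd180 and Hsp90b1 were lower. These comparisons use the same M0 vehicle libraries as those of polarization above.

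Ordered by mean level in the 6 bone marrow-derived vehicle groups, Tlr7 ran from 61.6 ± 16.4 CPM (SD, n = 3) in wild-type M0 to 182 ± 28.3 CPM (SD, n = 3) in wild-type M1. The step from p53 KO M1, at 99.2 ± 17.2 CPM (SD, n = 3), to p53 KO M0, at 148 ± 18.99 CPM (SD, n = 3), was its only step between neighbours without overlap. Tlr4 ran from 20.5 ± 5.59 CPM (SD, n = 3) in wild-type M1 to 56.00 ± 5.85 CPM (SD, n = 3) in p53 KO M2. The 4 M0 and M1 groups overlapped with their neighbours, and a gap separated them from the 2 M2 groups. Tlr2 was lowest in p53 KO M2, at 29.95 ± 2.74 CPM (SD, n = 3), apart from the next group, wild-type M2, at 51.2 ± 10.6 CPM (SD, n = 3). It was highest in wild-type M0, at 199 ± 89.1 CPM (SD, n = 3), and all its neighbours above wild-type M2 overlapped. Cd14 ran from 70.2 ± 6.42 CPM (SD, n = 3) in p53 KO M2 to 450.1 ± 28.4 CPM (SD, n = 3) in wild-type M1, and every neighbouring pair overlapped. Tlr3 was highest in wild-type M1, at 25.7 ± 3.02 CPM (SD, n = 3), above p53 KO M1, at 17.00 ± 3.85 CPM (SD, n = 3), without overlap. Tlr13 was lowest in p53 KO M2, at 42.7 ± 4.68 CPM (SD, n = 3), and highest in p53 KO M0, at 80.7 ± 3.49 CPM (SD, n = 3). Tlr8 ran from 2.55 ± 0.631 CPM (SD, n = 3) in wild-type M1 to 11.3 ± 4.37 CPM (SD, n = 3) in p53 KO M0. Tlr6 ran from 17.9 ± 4.01 CPM (SD, n = 3) in p53 KO M0 to 28.8 ± 7.19 CPM (SD, n = 3) in wild-type M2, with overlap at each step, and Tlr1 also overlapped at each step, from 19.2 ± 1.97 CPM (SD, n = 3) in wild-type M2 to 36.4 ± 2.91 CPM (SD, n = 3) in wild-type M1. Levels are not divided by transcript length and are compared within a gene only.

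**Figure D3:**
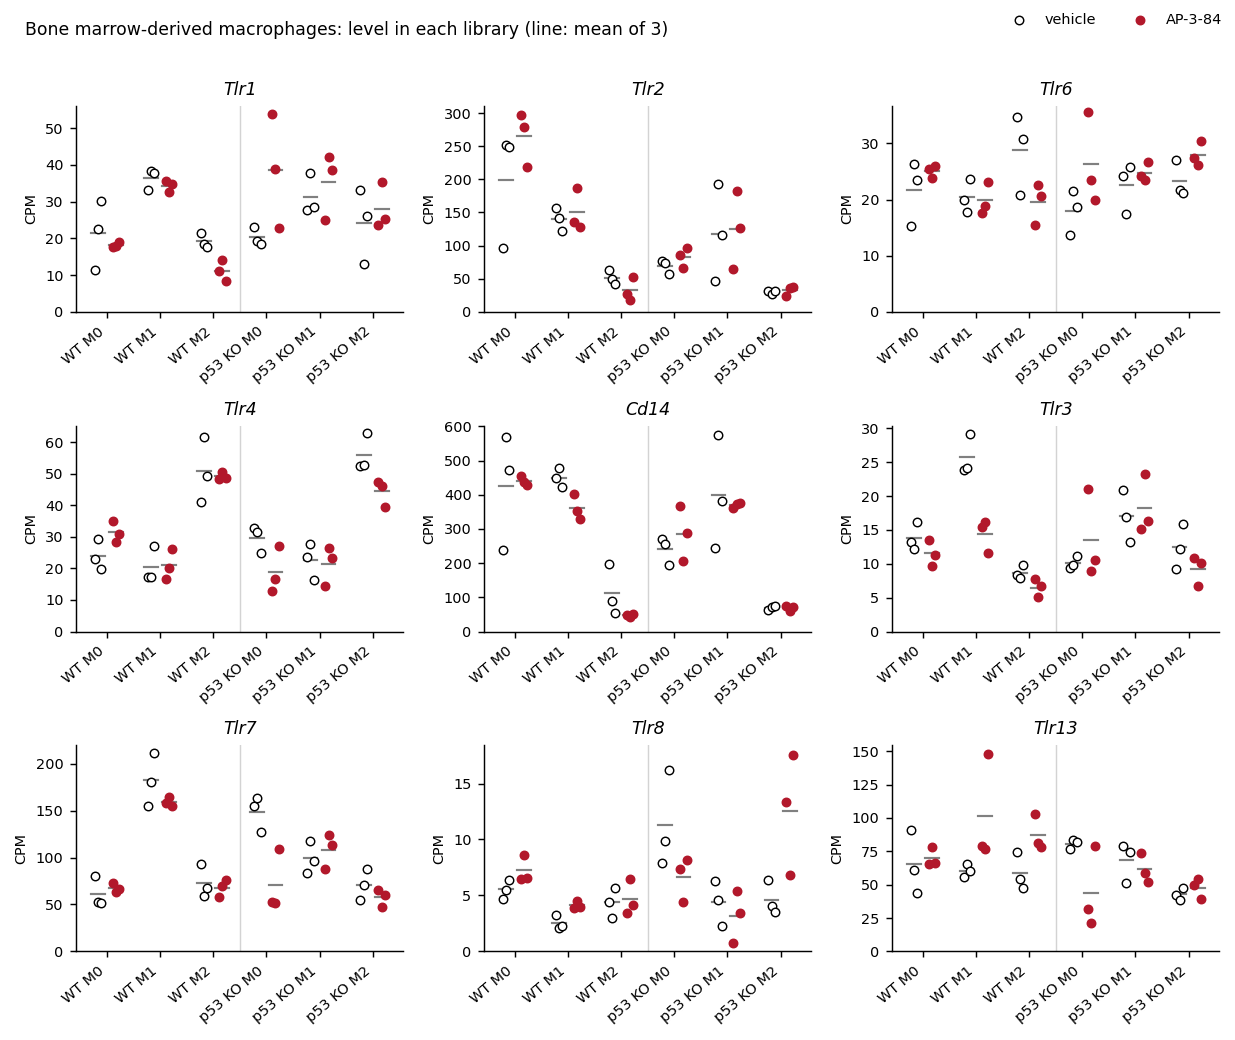
Level in CPM (linear axis from 0) of 9 members in each of the 36 bone marrow-derived libraries, wild-type on the left and p53 KO on the right of the grey vertical line. Open circles are vehicle libraries, filled red circles AP-3-84 libraries and short grey lines the mean of 3. Tlr7 in vehicle libraries rises from M0 to M1 in wild-type cells and falls in p53 KO cells, and in p53 KO M0 cells the AP-3-84 libraries lie at 51.1 to 109 CPM below the vehicle libraries at 127 to 163.5 CPM.

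With AP-3-84 there were 8 member calls over the 8 populations, 4 in thioglycollate, 3 in p53 KO M0 and 1 in wild-type M2 macrophages. The genes called were Tlr1, Tlr3, Tlr7, Tlr8, Tlr13 and Cd14. Only Tlr3 in thioglycollate and Tlr7 in p53 KO M0 macrophages held in all 11 other fits. The share of all genes called is given for each population and not for the 8 together. In thioglycollate macrophages 3 of 9 members fell and 1 rose, where 4.32% of 16955 genes were called, 2.51% higher and 1.82% lower, and groups did not overlap for 23.3%. Tlr3 fell 1.63-fold, from 10.02, 13.5 and 10.8 CPM in vehicle to 7.88, 7.02 and 6.22 CPM with the compound (log2 fold change -0.70, SE 0.13, adjusted p = 0.005). Tlr1 fell 1.65-fold, from 6.45, 8.26 and 8.63 CPM to 5.17, 3.95 and 5.02 CPM (log2 fold change -0.72, SE 0.17, adjusted p = 0.018). Tlr8 fell 1.52-fold, from 24.9, 25.3 and 26.8 CPM to 18.9, 18.4 and 13.4 CPM (log2 fold change -0.60, SE 0.15, adjusted p = 0.0336). In all 3 genes every AP-3-84 library was below every vehicle library. Cd14 rose 1.26-fold, from 70.99, 59.7 and 62.2 CPM to 84.4, 71.9 and 87.01 CPM, also without overlap but by the smallest step of the 4 (log2 fold change 0.34, SE 0.09, adjusted p = 0.0407). Tlr2 was at 17.9, 14.03 and 13.02 CPM and 11.5, 11.2 and 11.5 CPM and missed the threshold (log2 fold change -0.39, SE 0.11, adjusted p = 0.0691). Tlr6, at 10.7, 11.4 and 11.7 CPM and 8.01, 7.02 and 8.23 CPM, was likewise lower without overlap and not called (log2 fold change -0.54, SE 0.19, adjusted p = 0.143). The median over the 9 tested members was -0.40, beside 0.03 over all genes. DESeq2 called 6 members. The 4.32% of genes given above is from edgeR, so it is not the share beside these 6. Tlr3 held in all 11 other fits, over which the log2 fold change ran from -0.84 to -0.61 for Tlr1, from -0.69 to -0.46 for Tlr8 and from 0.28 to 0.41 for Cd14. For Tlr1 the adjusted p was 0.0841 without thioglycollate AP-3-84 replicate 2, 0.074 without thioglycollate vehicle replicate 2 and 0.0877 without thioglycollate vehicle replicate 3. For Tlr8 it was 0.0583 without thioglycollate AP-3-84 replicate 2, 0.152 without thioglycollate AP-3-84 replicate 3, 0.0837 without thioglycollate vehicle replicate 1, 0.0937 without thioglycollate vehicle replicate 2 and 0.123 without thioglycollate vehicle replicate 3. For Cd14 it was 0.131 without thioglycollate AP-3-84 replicate 1, 0.167 without thioglycollate AP-3-84 replicate 3, 0.189 without thioglycollate vehicle replicate 2 and 0.157 without thioglycollate vehicle replicate 3, and 0.0612 with the replicate block and 0.0544 with scaling by total counts. Unc93b1, which carries the endosomal receptors from the endoplasmic reticulum, fell as well (log2 fold change -0.37, adjusted p = 0.00529), as did Ly86 (-0.51, adjusted p = 0.0465), 2 of 9 co-receptors and chaperones. Among 24 adaptors and kinases Irf7 fell (-0.70, adjusted p = 0.00159) and Ikbkg rose (0.66, adjusted p = 0.000897). Summed macrophage markers were 34284 to 34749 CPM in vehicle and 27578 to 32739 CPM in AP-3-84 libraries. Their part in the result was not tested.

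In ascites macrophages no member was called by edgeR or DESeq2, where edgeR called 1.79% of genes (1.69% higher, 0.1% lower). An unadjusted p under 0.05 in edgeR's test was reached by 1804 of 16955 genes, and by 3 members. Those 3 were Tlr1, Tlr2 and Tlr3, each lower without overlap, as groups did not overlap for 16.3% of all genes. Tlr1 was at 14.3, 13.9 and 14.6 CPM in vehicle and 10.01, 11.7 and 10.5 CPM with the compound (log2 fold change -0.42, SE 0.15, adjusted p = 0.292). Tlr3 was at 36.5, 36.3 and 36.7 CPM and 33.1, 28.8 and 28.9 CPM (log2 fold change -0.27, SE 0.12, adjusted p = 0.408). Tlr2 was at 89.98, 87.01 and 84.2 CPM and 67.1, 80.7 and 72.5 CPM (log2 fold change -0.25, SE 0.10, adjusted p = 0.367). The difference in response between ascites and thioglycollate cells passed for none of the 9 members by edgeR or DESeq2, and edgeR called 0.118% of all genes. An unadjusted p under 0.05 was reached there by 5 members and by 1295 of 16955 genes. For Tlr3 that difference was 0.43 on the log2 scale (95% interval 0.08 to 0.78), and for Tlr1 0.31 (-0.14 to 0.75). Of the pathway lists in ascites cells, Ikbkg and Cxcl2 were the 2 genes called, both higher (log2 fold changes 0.47 and 0.74, adjusted p = 0.0253 and 0.0352).

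In p53 KO M0 cells AP-3-84 was followed by 2 falls and 1 rise among 9 members tested, where 20.7% of 11779 genes were called, 12.1% higher and 8.57% lower, and groups did not overlap for 32.1%. Tlr7 fell 2.09-fold, from 155, 163 and 127 CPM to 52.8, 51.1 and 109 CPM (log2 fold change -1.06, SE 0.23, adjusted p = 0.00138). The groups did not overlap, and AP-3-84 replicates 1 and 2 were far below replicate 3. Tlr13 fell 1.84-fold, from 76.8, 83.4 and 81.95 CPM to 31.8, 21.5 and 78.9 CPM (log2 fold change -0.88, SE 0.31, adjusted p = 0.0451). AP-3-84 replicate 3 was within the vehicle range. Tlr1 rose 1.90-fold, from 23.1, 19.4 and 18.4 CPM to 53.8, 38.97 and 22.8 CPM (log2 fold change 0.92, SE 0.30, adjusted p = 0.0246), and again replicate 3 was the one that overlapped. Tlr4 was at 32.8, 31.4 and 24.9 CPM and 12.9, 16.5 and 27.00 CPM and missed the threshold (log2 fold change -0.66, SE 0.25, adjusted p = 0.0553), although it passed with the replicate block (adjusted p = 0.0488) and with scaling by total counts (adjusted p = 0.0476). These values depended on which AP-3-84 libraries entered the fit. Without replicates 1 and 2, where the lone library left is assumed to vary like the other groups, no member was called, and the log2 fold changes were -0.43 for Tlr7 (adjusted p = 0.736), -0.02 for Tlr13 and 0.18 for Tlr1. Without the 3 libraries that stood apart, replicate 3 among them, 5 members were called: Tlr7 at -1.51, Tlr13 at -1.59, Tlr4 at -1.004, Tlr1 at 1.196 and Tlr6 at 0.73. The 20.7% of genes given above is from the fit with all libraries, so it is not the share beside these 5. In the single leave-one-out fits Tlr7 was called every time. Over the 11 other fits the log2 fold change ran from -1.51 to -0.87 for Tlr7, from -1.60 to -0.54 for Tlr13 and from 0.61 to 1.194 for Tlr1. For Tlr13 the adjusted p was 0.206 without p53 KO M0 AP-3-84 replicate 1, 0.286 without p53 KO M0 AP-3-84 replicate 2, 0.0746 without p53 KO M0 vehicle replicate 1, 0.101 without p53 KO M0 vehicle replicate 2 and 0.0993 without p53 KO M0 vehicle replicate 3, and for Tlr1 0.212 without p53 KO M0 AP-3-84 replicate 1, 0.0777 without p53 KO M0 AP-3-84 replicate 2, 0.0739 without p53 KO M0 vehicle replicate 2 and 0.0862 without p53 KO M0 vehicle replicate 3.

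Genes downstream of the receptors changed in the same comparison. Their list was chosen with earlier results of these data known. AP-3-84 replicate 3 was set apart by Saa3, a gene of this list, so its place among these genes is not a separate result. Of 17 response genes tested 9 rose and 0 fell (list median 3.15, beside -0.03 over all genes). Marco was at 2896, 2067 and 473 CPM in the AP-3-84 replicates and at 16.8, 17.5 and 14.3 CPM in the vehicle ones. In wild-type M0 cells it was at 1171 to 2070 CPM in vehicle. Of 8 negative regulators 4 rose, led by Socs1 (log2 fold change 2.77, adjusted p = 0.0158) and Irak3 (2.24, adjusted p = 1.07e-05). Of 24 adaptors and kinases 6 rose, led by Irf7 (2.37, adjusted p = 0.0146) and Ikbke (1.71, adjusted p = 1.94e-05), and Cd180 was the 1 of 9 co-receptors that rose. Adgre1, the gene of F4/80, was at 657 to 2408 CPM in these AP-3-84 libraries and 466 to 504 CPM in vehicle, and summed macrophage markers were 17926 to 38791 and 32252 to 38950 CPM. Neutrophil markers summed to 301 to 489 and 583 to 738 CPM, and dendritic cell markers to 42.9 to 96.4 and 23.8 to 30.8 CPM, both without overlap. Their part in the member changes was not tested. Between genotypes, the AP-3-84 response of M0 cells differed for 2 members, where 17% of genes were called. The difference was -1.20 for Tlr7 (SE 0.33, adjusted p = 0.0117) and -1.05 for Tlr4 (SE 0.35, adjusted p = 0.0342). In wild-type M0 cells Tlr7 was at 80.5, 52.8 and 51.4 CPM in vehicle and 73.00, 63.2 and 66.4 CPM with the compound. Tlr4 was at 23.1, 29.2 and 19.7 CPM and 35.00, 28.3 and 30.8 CPM. For both genes the wild-type values overlapped. Without p53 KO M0 AP-3-84 replicates 1 and 2 the differences were -0.57 and -0.51, with adjusted p of 0.511 and 0.636. Without the 3 libraries that stood apart, p53 KO M0 AP-3-84 replicate 3 among them, they were -1.87 and -1.35, with adjusted p of 5.47e-06 and 0.00602, and Tlr13 (-1.996, adjusted p = 6.44e-05) and Tlr1 (1.75, adjusted p = 0.000885) were called too. For Tlr7 the adjusted p was 0.0547 without p53 KO M0 AP-3-84 replicate 2, and for Tlr4 0.121 without p53 KO M0 AP-3-84 replicate 1, 0.102 without p53 KO M0 AP-3-84 replicate 2, 0.0751 without p53 KO M0 vehicle replicate 1, 0.0681 without p53 KO M0 vehicle replicate 2, 0.0939 without wild-type M0 AP-3-84 replicate 1, 0.0723 without wild-type M0 vehicle replicate 1 and 0.082 without wild-type M0 vehicle replicate 3.

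In wild-type M2 cells Cd14 was the 1 member called, where 1.21% of genes were, 0.229% higher and 0.976% lower, and groups did not overlap for 16.8%. It fell 2.43-fold, from 199, 88.4 and 55.4 CPM to 48.2, 41.5 and 51.4 CPM (log2 fold change -1.28, SE 0.33, adjusted p = 0.0473). The groups did not overlap, but vehicle replicate 1 was more than 2 times the next library. Without the 3 libraries that stood apart, that one among them, the log2 fold change was -0.62 (adjusted p = 0.244). The adjusted p was 0.201 without wild-type M2 AP-3-84 replicate 1, 0.236 without wild-type M2 AP-3-84 replicate 2, 0.101 without wild-type M2 AP-3-84 replicate 3 and 0.393 without wild-type M2 vehicle replicate 1, 0.0747 with the replicate block and 0.0819 with scaling by total counts. Of 17 response genes tested 8 fell and 0 rose (list median -2.89, beside 0.00 over all genes), led by Il1a (-5.24, adjusted p = 0.00755) and Saa3 (-4.28, adjusted p = 0.0218). Ikbke and Nfkbia, which encodes an NF-kB inhibitor, fell too. Neutrophil markers summed to 458 to 3973 CPM in these vehicle libraries and 206 to 534 CPM in the AP-3-84 ones, with 7 and 6 of 7 detected and Ly6g at 0 with the compound, and their part in the result was not tested. Tlr1, at 21.4, 18.4 and 17.7 CPM and 11.1, 14.2 and 8.34 CPM, was lower without overlap and not called (log2 fold change -0.77, SE 0.32, adjusted p = 0.307).

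In the other 4 bone marrow-derived populations edgeR called no member. These were wild-type M0, wild-type M1, p53 KO M1 and p53 KO M2 cells, where 0.144%, 0.017%, 0% and 0.0509% of genes were called, of which 0.034% higher and 0.017% lower in p53 KO M2. Groups did not overlap for 16.7%, 18.3%, 6.66% and 11.4% of genes. DESeq2 called no member there, and 0, 2, 0 and 1 members had an unadjusted p under 0.05 in edgeR's test. Of 11779 genes, 1107, 857, 206 and 1454 had such a p. Tlr3 in wild-type M1 cells was at 23.8, 24.1 and 29.2 CPM in vehicle and 15.4, 16.1 and 11.6 CPM with the compound, without overlap (log2 fold change -0.84, SE 0.26, adjusted p = 0.404). Tlr13 there was at 56.04, 65.2 and 60.2 CPM and 78.8, 76.6 and 148 CPM, with AP-3-84 replicate 3 the highest (log2 fold change 0.74, SE 0.31, adjusted p = 0.562). Tlr8 in p53 KO M2 cells was at 6.37, 4.05 and 3.47 CPM and 13.4, 6.79 and 17.6 CPM, also without overlap (log2 fold change 1.44, SE 0.43, adjusted p = 0.177). The 95% interval of that log2 fold change was 0.60 to 2.28, on at most 64 counts in a library. Tlr2 in wild-type M0 cells was at 96.01, 252 and 248 CPM and 297, 279 and 218 CPM, with the spread in the vehicle libraries, and its 95% interval was -0.36 to 1.18. In p53 KO M1 cells the 95% interval was -0.70 to 0.85 for Tlr2 and -0.72 to 0.50 for Cd14. The difference in AP-3-84 response between genotypes passed for no member in M1 or M2 cells by edgeR or DESeq2. Of all genes, edgeR called 0.00849% and 1.77%. An unadjusted p under 0.05 was reached by 1 and 4 members, and by 831 and 1815 of 11779 genes. Nor did the response of M1 or of M2 against M0, averaged over genotypes, pass for any member by either method. There 0.492% and 1.87% of genes were called. An unadjusted p under 0.05 was reached by 1 and 4 members, and by 1329 and 1833 of 11779 genes. Tlr13 was called in both of these last tests without the 3 libraries that stood apart (0.89 and 1.06, adjusted p = 0.0146 and 0.00412). None of these misses shows that a level stayed the same.

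**Figure D4:**
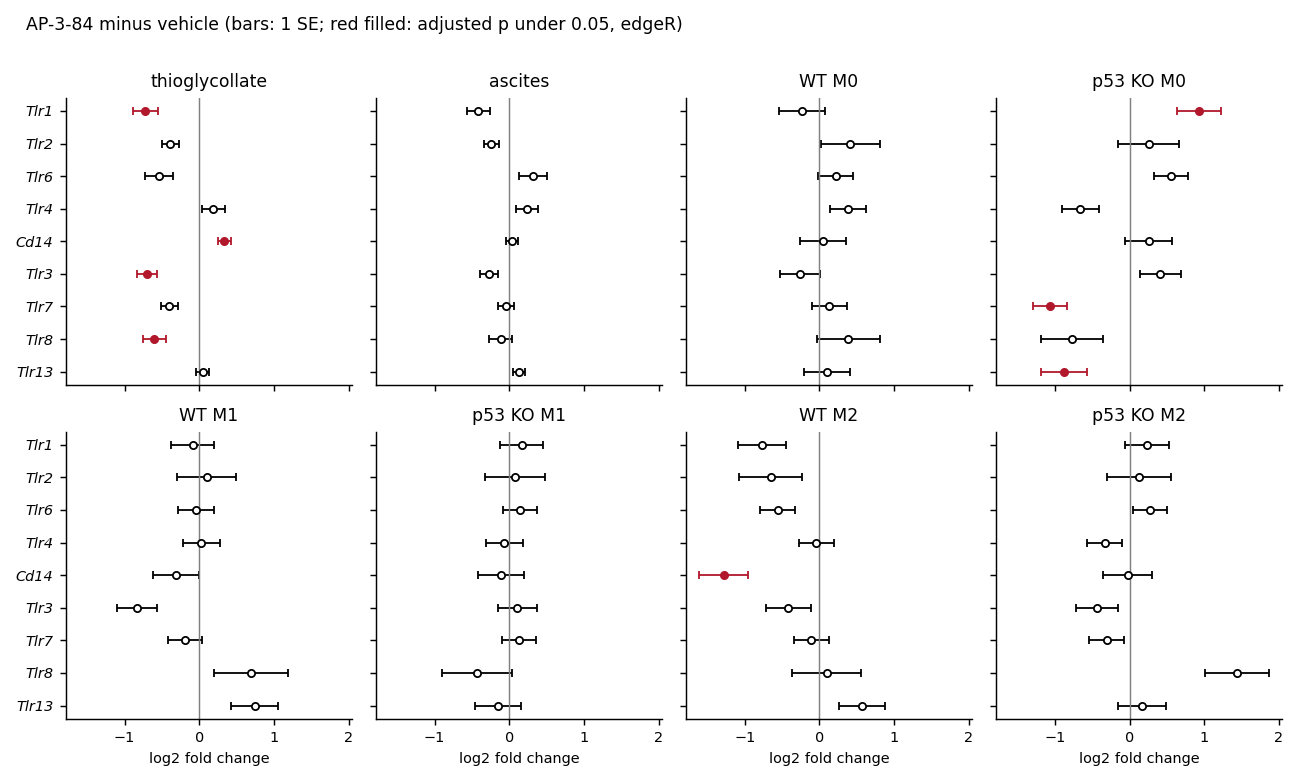
Log2 fold change of 9 members with AP-3-84 against vehicle in 8 populations, with bars of 1 SE; red filled points have an adjusted p under 0.05 in edgeR's quasi-likelihood test and open points do not. The 8 red points are 4 in thioglycollate macrophages, 3 in p53 KO M0 and 1 in wild-type M2 cells. The bars are shorter in the peritoneal populations than in the bone marrow-derived ones.

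Over the 36 bone marrow-derived libraries the level of Tlr2 moved closely with that of Cd14. Pearson's r of their log2 CPM was 0.90, given as a description over libraries that share groups and depth, with no test. Only Hif1a, which encodes a hypoxia-induced transcription factor, ranked above Cd14 in likeness to Tlr2 among 8431 genes with an average log2 CPM of at least 3, and Marcksl1 was the third. Marcksl1, Spata13 and Fyb were the genes most like Cd14, at 0.94, 0.93 and 0.92. Tlr4 ran against Cd14, at -0.78, and was most like Casp6 (0.91), Atp6v1a (0.90) and Angptl2 (0.89). Those closest to Tlr3 were Ms4a6c (0.83), Ddx58 (0.83), the RNA sensor RIG-I, and Ifitm3 (0.83), an interferon-induced gene. Tlr1 was closest to Cp (0.87), Mras (0.81) and Samhd1 (0.80), and Tlr7 to Syt11 (0.84), Smim3 (0.81) and Peak1 (0.80). Tlr8 was closest to Irak4 (0.78), a kinase of Myd88 signalling, then Spag9 (0.78) and Irf2 (0.77). Likeness was weaker for Tlr13, closest to Sel1l3 (0.72), Tmem59 (0.71) and Mgat5 (0.71), and for Tlr6, closest to Exoc3l4 (0.66), Rilpl2 (0.65) and Ammecr1l (0.60).

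**Figure D5:**
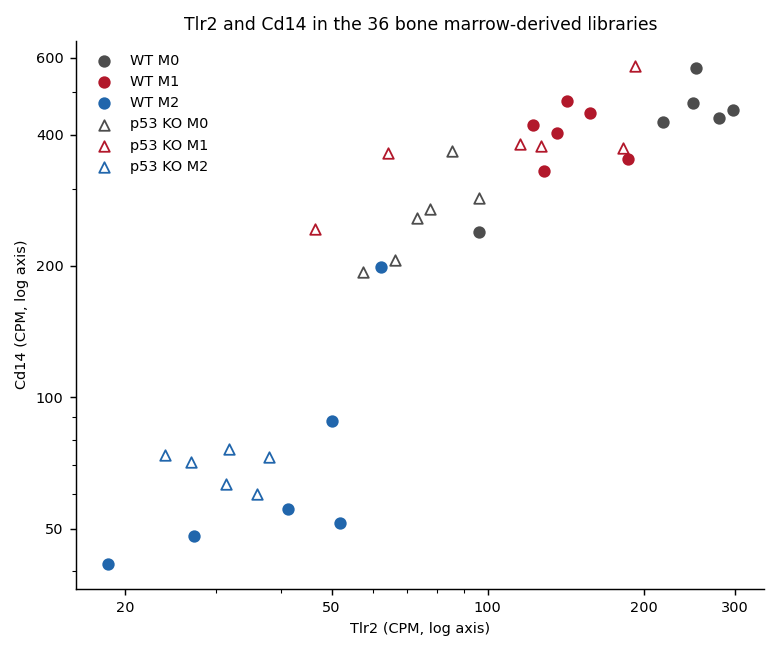
Cd14 against Tlr2 in CPM, both on log axes, in the 36 bone marrow-derived libraries, vehicle and AP-3-84 together. Filled circles are wild-type and open triangles p53 KO cells, grey M0, red M1 and blue M2. The M2 libraries lie at the lower left, except wild-type M2 vehicle replicate 1 at 62.3 CPM of Tlr2 and 199 CPM of Cd14, and the wild-type M0 and M1 libraries at the upper right, with wild-type M0 vehicle replicate 1 (96.0 CPM of Tlr2, 239 CPM of Cd14) among the p53 KO M0 libraries.

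The pathway lists in the remaining vehicle comparisons moved as follows. On M1 polarization 5 of 17 response genes were higher and 1 lower in wild-type cells, and 17 of 17 were higher in p53 KO cells (list medians 1.02 and 6.05, beside 0.00 and -0.01 over all genes), where 15.5% and 44.5% of all genes were called. Saa3 was among the 2 largest rises in wild-type cells, with a log2 fold change of 7.54 (adjusted p = 4.35e-05), and Il1a and Il6 were at 0 CPM in all p53 KO M0 vehicle libraries and averaged 95.03 and 21.7 CPM in M1. Irf7 rose in both genotypes (4.05 and 4.04, adjusted p = 0.000387 and 7.44e-05). Unc93b1 rose in wild-type M1 cells (1.06, adjusted p = 0.0223), as did Ly96, the LPS-binding partner of Tlr4 (0.92, adjusted p = 0.0287). On M2 polarization Cd36 rose in both genotypes (1.19 and 1.498, adjusted p = 0.000694 and 2.52e-05), Pik3ap1, an adaptor that links these receptors to phosphoinositide 3-kinase, fell in both (-2.37 and -1.41, adjusted p = 0.000134 and 0.0081), and Socs1 rose in both (3.66 and 6.18, adjusted p = 2.35e-06 and 3.32e-08). Irak3 fell in wild-type M2 cells (-2.59, adjusted p = 4.15e-07). Of 9 co-receptors and chaperones 5 were called in each M2 comparison, 1 higher and 4 lower in wild-type and 2 higher and 3 lower in p53 KO cells, where 23.4% and 38% of all genes were called. Adjusted p-values here are from edgeR with Benjamini-Hochberg adjustment over all genes.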

How the data were processed

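RNA was measured by 3′ tag sequencing (QuantSeq FWD, single 75-base reads, per the labels' protocols) in 48 libraries of 16 groups. The authors deposited 1 table of whole-number counts per gene and library. RSEM, Bowtie2 and DESeq2 are named in the submitters' processing notes without version or role, and the whole counts may be rounded estimates. Of 51789 gene IDs, 51596 had a symbol. From the counts, edgeR 4.0.16 (limma 3.58.1, R 4.3.3) fitted 1 mean per group with TMM scaling, its default filter on low counts and robust quasi-likelihood dispersion, separately for 12 peritoneal libraries (16955 genes tested) and 36 bone marrow-derived ones (11779 genes tested). In all, 24 comparisons were tested, 2-sided, with Benjamini-Hochberg adjustment over all genes of a fit. The scripts were tested on simulated data. No library repeated another: the mean chi-square per gene of 48 replicate pairs was 2.57 to 42.6, over genes with at least 20 counts in the pair, where sampling noise alone gives about 1. Alternatives were DESeq2 1.42.0, other scalings, no filter, a replicate block and leaving out each library. The members and lists were chosen with earlier results of these data known. Besides the members, the text names at most the 2 largest called rises and falls of each pathway list in a comparison, plus Tnfaip3, Hsp90b1 and Nfkbia where a count of 5 or fewer is listed, and the 3 genes most like each member (log2 CPM, prior count 2). Trp53, Cdkn1a and Hspa1a are named only in regard to the labels. Of these, Cdkn1a separated the genotypes, Trp53 does not check the deletion, and the pooled Hspa1a ranges of the 2 treatments overlapped.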

Additional observations from a re-analysis of the deposited data

Results flagged for a closer look

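In 4 results the same contrast differed between p53 KO and wild-type macrophages by edgeR's test of the difference itself. For Tlr7 the change from M0 to M1 in vehicle cells differed by -2.15 on the log2 scale, p53 KO minus wild-type (adjusted p = 2.13e-05), since Tlr7 rose in wild-type and fell in p53 KO cells. The change of Tlr7 from M0 to M2 differed by -1.31, p53 KO minus wild-type, by the same test (adjusted p = 0.00361). Of all genes 20.7% and 27.1% were called in these 2 tests, and of 9 members tested 1 was called in each. Both use the M0 vehicle libraries, in which Tlr7 was higher in p53 KO cells in 3 of 3 libraries.

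The response of M0 cells to AP-3-84 differed by -1.20 for Tlr7 (adjusted p = 0.0117) and by -1.05 for Tlr4 (adjusted p = 0.0342). These were 2 of 9 members tested, where 17% of all genes were called. The size depended on which p53 KO M0 AP-3-84 libraries entered the fit. Without replicates 1 and 2 it was -0.57 for Tlr7 and -0.51 for Tlr4 (adjusted p = 0.511 and 0.636), and without the 3 libraries that stood apart, replicate 3 among them, -1.87 and -1.35 (adjusted p = 5.47e-06 and 0.00602).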

How the results depend on the processing

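Of 37 member calls, 20 held in all other fits tried before the added ones and 17 were lost in at least 1, each of these without some single library, and 0 changed direction. Numbers of members called are given here, without the share of all genes called in each of these fits. With no filter on low counts they were 1 for AP-3-84 in wild-type M1 and 1 in p53 KO M2 cells, 5 for p53 KO M1 against M0, 2 for p53 KO against wild-type M2, 4 for the M0 response to AP-3-84 between genotypes, 1 for that of M2, 1 and 2 for the responses of M1 and M2 against M0, and 2 for the M1 change between genotypes. With total counts as the scale they were 0 for AP-3-84 in wild-type M2 cells, 0 for p53 KO against wild-type M1 and 2 for the M2 change between genotypes. That scale moved the median of all genes by more than 0.1 in several comparisons, to -0.30 for wild-type M1 and -0.20 for wild-type M2 against M0, 0.27 for p53 KO against wild-type M1 and 0.19 for M2. The cause of these changes was not tested.

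The replicate block left 0 members called for AP-3-84 in wild-type M2 cells, lost 2 calls in all and added 1. Replicate numbers were not shown to pair the samples: 4 of 24 same-numbered pairs correlated above 0.1, and in 0 populations did every pair do so. In 6 of 24 a library correlated best with its own number.

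Another 2 sets of libraries were left out after seeing the data, again without the share of all genes called in those fits. Without p53 KO M0 AP-3-84 replicates 1 and 2, 0 members were called there and 0 for the M0 response between genotypes. Without the 3 libraries that stood apart the numbers were 0 for AP-3-84 in wild-type M2, 5 in p53 KO M0, 1 for wild-type M1 against M0, 4 for the M0 response between genotypes, 1 and 1 for the responses of M1 and M2 against M0, and 3 and 2 for the M1 and M2 changes between genotypes.

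Leaving out each library in turn gave the ranges of members called that follow, again without the share of all genes called in those fits. For AP-3-84 they were 2 to 3 in thioglycollate cells, 0 to 1 in wild-type M2, 1 to 5 in p53 KO M0 and 0 to 1 in p53 KO M2. They were 1 to 3 for wild-type M1, 1 to 3 for p53 KO M1 and 3 to 5 for p53 KO M2 against M0. Between genotypes they were 2 to 3 in M0 and 0 to 1 in M1. For differences they were 0 to 4 for the M0 and 0 to 1 for the M2 response between genotypes, 0 to 2 and 0 to 1 for M1 and M2 against M0, and 1 to 2 for both polarization changes between genotypes. Cd14, not called, stood at 0.12 for the M2 change between genotypes and ran from -0.19 to 0.79 with single libraries left out, negative in 4 fits (-0.19, -0.13, -0.017 and -0.0064). At 3081707 to 4645148 counts per bone marrow-derived library, Tlr9 had at most 3 counts and Tlr8 had 3 to 64. At 15532373 to 19417581 counts per peritoneal library, Tlr9 had at most 8 counts and Tlr8 had 200 to 494. The part of depth in these low counts was not tested. Over the 12 group means the 3 genes most like Tlr2 were again Hif1a, Cd14 and Marcksl1, whereas those most like Tlr7 were Apba1, Slc35b4 and Ethe1.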
